A study of Homo sapiens with 2 samples.

Results

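Accessible chromatin was compared in 8 windows of 5 Mb on chromosomes 2, 4, 5, 9 and 14, in which few of the peaks found in control cells were found again after knockdown of SMARCA4. The members are all peaks of both lists whose start lies in these hg19 windows. They are 140 to 145 Mb of chromosome 2, 35 to 40, 60 to 65 and 130 to 135 Mb of chromosome 4, 115 to 120 Mb of chromosome 5, 80 to 85 and 90 to 95 Mb of chromosome 9, and 40 to 45 Mb of chromosome 14. They hold 964 of the 96664 peaks on chromosomes 1 to 22 and X, of which 620 of 55124 are control peaks and 344 of 41540 are knockdown peaks. The windows were picked from the overlap between the lists, so that overlap is described below and not tested. The windows came with the working name gene-poor; their gene content was not checked, because no hg19 annotation was used here, and they are called by their positions.

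The assay was ATAC-seq, which reads out open chromatin as the places where a transposase can cut and tag DNA, on Z-138, an established line of mantle cell lymphoma, a malignancy of B cells. There were 2 libraries, 1 from cells with a control shRNA and 1 from cells with an shRNA against SMARCA4. Cells of both groups were cultured with doxycycline, and the labels of neither group name another treatment, although the peak names of both lists contain the term DMSO. The labels do not say which shRNA sequence was used or whether the cells came from 1 clone. The level of SMARCA4 cannot be read from these lists, and so the knockdown was not checked.

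SMARCA4 is an ATPase of the SWI/SNF (BAF) complexes, which use ATP to slide or evict nucleosomes and so keep enhancers and promoters open to transcription factors. In lymphoid cells these complexes are known to act at many enhancers, including ones far from genes. By general knowledge, the stretches studied here include the loci of LRP1B, a large lipoprotein receptor family member, on chromosome 2 and of the adhesion receptor ADGRL3 and the protocadherin PCDH10 on chromosome 4. They also include the locus of SYK, the kinase that relays B-cell receptor signals, on chromosome 9, and that of the synaptic adhesion gene LRFN5 on chromosome 14. No peak was assigned to any of these genes.

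All values rest on 1 library per group, so no test between control and knockdown could be made, and the spread between cultures is unknown. Intervals are exact binomial (Clopper-Pearson) 95% intervals, or order-statistic intervals for medians; they cover counting error only, and neighbouring peaks are not independent. Depth was solved from the peak caller's values and was, for a genome taken as 2.7 Gb, 6.89 M reads or fragments (control) and 9.76 M (knockdown). Called summits started at 3 reads (control) and 4 reads (knockdown), so a region outside a list lies below the limit of calling and was not shown to be closed.

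Every window held fewer knockdown than control peaks. Over the 8 windows there were 344 knockdown peaks for 620 control peaks, or 55.5% (48.5 to 63.4%), where all peaks of the lists gave 75.4% (74.4 to 76.3%). The ratio was lowest in the 90 to 95 Mb window of chromosome 9, with 31 knockdown and 73 control peaks (42.5%). It was highest in the 60 to 65 Mb window of chromosome 4, with 43 and 62 (69.4%, with an interval of 45.9 to 104.0% that includes equality). Covered length showed the same direction, at 66.5 kb in the knockdown and 110 kb in the control list.

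The control list itself was not sparse in most of these windows. Control peaks per window ranged from 57 to 98, against a median of 92 over the 598 windows of this width that held control peaks (interquartile range 72 to 111). Of the 8 windows, 6 lay at or above that lower quartile and 2 above the median. In the knockdown list the windows held 31 to 58 peaks, against a median of 68.5 (interquartile range 51 to 84), and 6 of the 8 lay below the lower quartile. The windows were thus near the ordinary range in the control list and mostly under it in the knockdown list.

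Of the 620 control peaks, 366 had no partner, meaning that no knockdown peak overlapped them by at least 1 bp. Over all control peaks 39.5% had none. A partner was found for 254 peaks, or 41.0% (37.1 to 44.95%), against 60.5% of all control peaks. Weak peaks find partners less often, so the share was also set beside the one given by strength, which is the overlapped share of each of 13 bands of the authors' fold enrichment over the whole list, averaged over the members. Strength gave 58.5%, so the observed share differed from it by -17.5 percentage points (interval -21.4 to -13.6). Set against peaks of the same 5 chromosomes outside the windows, the difference was -15.9 points. The windows were picked from the overlap that enters this difference, so the difference supports nothing by itself.

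The 8 windows were alike in this measure, which follows in part from the choice of windows with a low share. The chromosome 2 window had partners for 29 of 77 control peaks (37.7% against 58.1% given by fold). The 90 to 95 Mb window of chromosome 9 had them for 24 of 73 (32.9% against 51.8%). The window of chromosome 4 from 35 to 40 Mb was the mildest, with 45 of 94 (47.9% against 61.7%). The other five windows had shares from 40 to 43.9%, and lay between 17.0 and 17.9 points under the share given by fold. With reciprocal overlap of 50%, in which both peaks must share that much, the 35 to 40 Mb window of chromosome 4 went from -13.9 to -2.95 points, with an interval of -13.3 to 7.63 that includes 0. The chromosome 14 window went from -17.8 to -10.2 points under the same rule, with an interval of -23.0 to 3.62 that also includes 0.

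**Figure D1:**
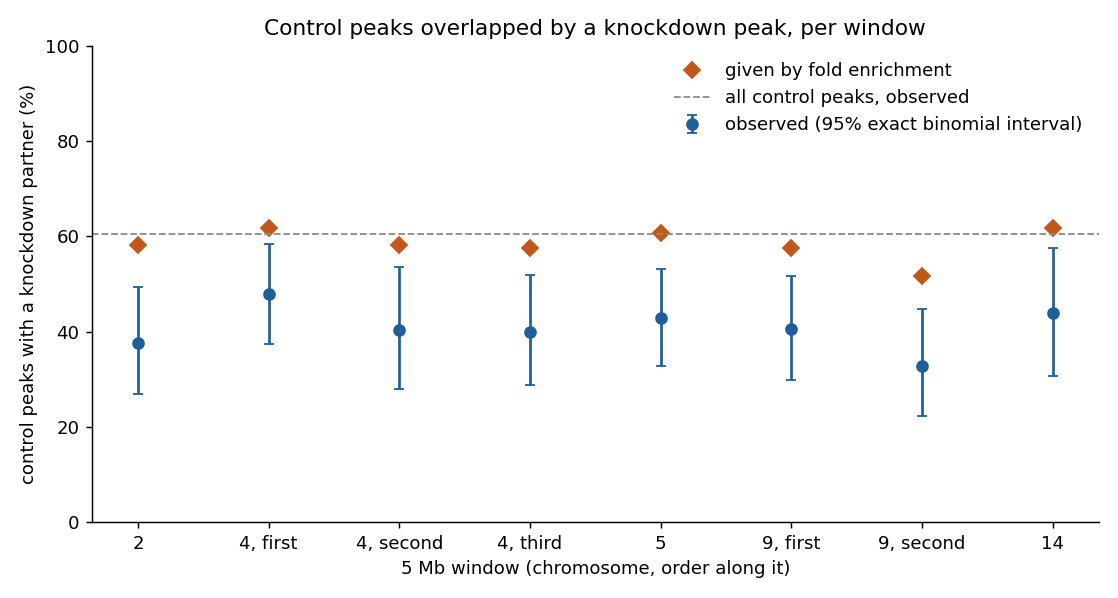
Share of control peaks with a knockdown partner (%) in each window, named by chromosome and by order along it. Blue points with bars are observed shares with exact 95% intervals, orange diamonds the shares given by fold, and the dashed line the 60.5% of all control peaks; observed shares run from 32.9 to 47.9%, and each interval ends below its diamond. The windows were chosen for low shares, so this position follows in part from the choice.

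Among the 565 windows of the genome with at least 40 control peaks, the members took ranks 1, 3, 5, 6, 7, 8, 10 and 13 by distance below the share given by fold. Ranks 2, 4, 9 and 11 were windows of chromosome X, and rank 12 was 35 to 40 Mb of chromosome 11 (42.2% observed, -15.0 points). Just outside the last member, at -13.9 points, lay 120 to 125 Mb of chromosome 3 at -13.8 points. The members thus passed into the windows outside them without a gap.

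The neighbouring windows of the same width held larger shares. On the 15 neighbours that are not members, the share of control peaks with a partner ranged from 51.7 to 73.3% with a median of 61.1%, and 762 of 1248 peaks had one (61.1%). In all 16 pairings of a member with a neighbour, the neighbour had the higher share. The step was widest on chromosome 4, where 40% at 130 to 135 Mb stood between 65.8% before it and 73.3% after it. It was narrower on chromosome 9, where the window between both members, 85 to 90 Mb, had 51.7%. Since members were taken as extremes of a list of windows, lower shares than in their neighbours follow in part from the choice.

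The lower share of members was also seen among peaks of good enrichment. The fold bands split the same overlap that chose the windows, so lower shares in members follow in part from the choice. Of 153 control members with a fold from 6 to 8, 44.4% had a partner (36.4 to 52.7%), against 66.7% of all control peaks in that band. From 10 to 12, 44 of 59 had one, or 74.6% (61.6 to 85.02%), against 92.0%. Below a fold of 4 the numbers were 2 of 52, or 3.85%, against 17.7%. At a fold of 12 or more, 45 of 47 had a partner, or 95.7% (85.5 to 99.5%), beside 96.9% of all control peaks of that strength. The observed share of the strongest peaks was thus near that of the whole list, and the wider differences lay in the bands below. With 47 peaks, the interval also allows a lower share among the strongest. In the bands below 4, from 5 to 6, from 6 to 8 and from 10 to 12, all 8 windows were under the share of the whole list. This held for 7 windows from 4 to 5, for 6 from 8 to 10 and for 2 at a fold of 12 or more.

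The knockdown peaks of the windows showed a smaller departure. A control partner overlapped 251 of 344, or 73.0% (67.9 to 77.6%), against 77.0% given by fold and 79.4% of all knockdown peaks. The remaining 93 had none, where 20.6% of all knockdown peaks had none. In the bands from 8 upward their shares were those of the whole list or above it, with 43 of 45 from 8 to 10 (95.6% against 95.6%). The 60 to 65 Mb window of chromosome 4 had the most knockdown peaks without partner, 18 of 43.

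**Figure D2:**
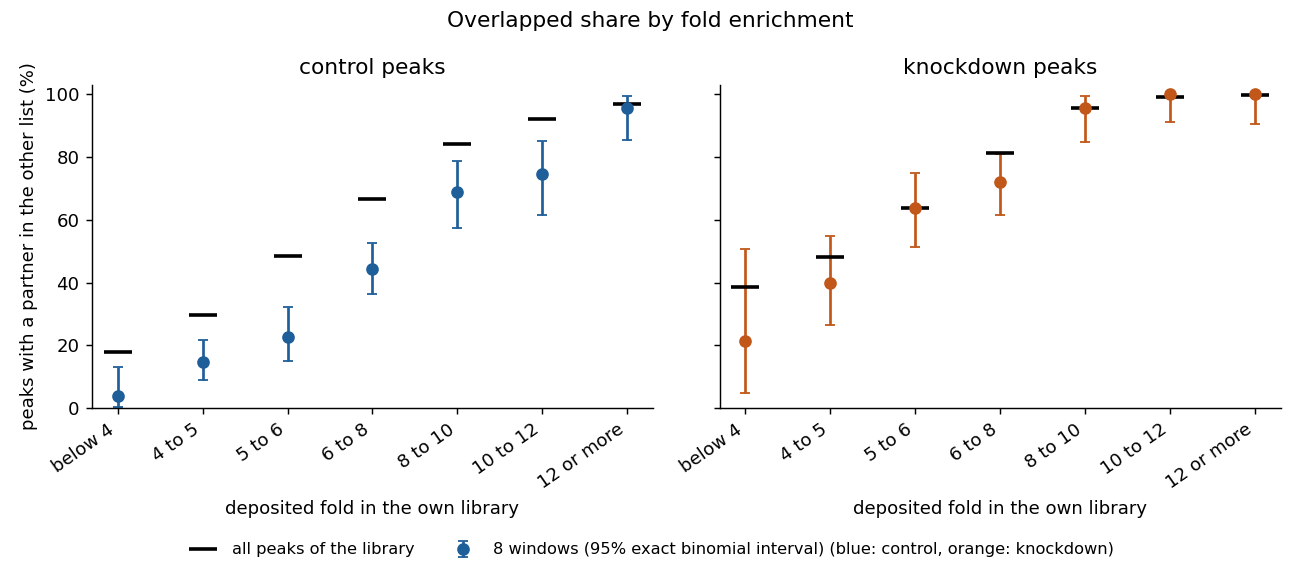
Share of peaks with a partner in the other list (%) by band of deposited fold, control peaks left and knockdown peaks right. Points with exact 95% intervals are the 8 windows and black bars all peaks of the library; control members lie under the black bars up to a fold of 12 (74.6 against 92.0% from 10 to 12), while knockdown members from a fold of 8 upward lie at them.

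Strong peaks without partner were found on the control side. The windows were chosen for control peaks without partner, so a higher share of such peaks than in the whole list follows in part from the choice. Folds rest on the background and depth of their own list, so equal folds in both lists do not mark peaks of equal strength. Of the 106 control members with a fold of 10 or more, 17 had no knockdown partner, or 16.04% (9.63 to 24.4%), where 5.32% of all control peaks of that fold had none. None of the 77 knockdown members of that fold lacked a control partner, which allows a share of up to 4.68% by the exact interval and 3.90% by a limit of 3 counts, where 0.469% of all knockdown peaks of that fold lacked one. With reciprocal overlap of 50% as the rule, 24 of the 106 control members lacked a partner, where 14.5% of all control peaks of that fold did. With a knockdown peak within 500 bp counted as a partner, the number was 17 of the 106, where 5.24% of all lacked one. The 17 control peaks were spread over all 8 windows, with 4 on chromosome 5, and 3 each in the chromosome 2, the chromosome 14 and the 35 to 40 Mb chromosome 4 windows. By height instead of fold, 14 control members with at least 15 stacked reads had no partner, where 4.82% of all such control peaks had none. The share among members of that height was not computed. The summits of the 17 had 13 to 25 stacked reads, with a median of 15. Scaled by depth alone, a factor of 1.34, these heights correspond to 17.4 to 33.5 reads. Peaks found in both lists did not reach that factor, with a median knockdown to control ratio of 1.13 over all pairs and 1.0 in the windows. The 17 were also picked for a high control fold, so their heights lie high in part by the choice. Their nearest knockdown peak lay 4.58 to 199 kb away, with a median of 24.3 kb.

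For the strongest control peak without partner in each window, the distance to the nearest called knockdown peak is given here. On chromosome 5, the peak from 116006990 to 116007245 (hg19, counted from 1) reached 23 reads at its summit (fold 14.7), and the nearest knockdown peak was 10.3 kb away. On chromosome 2, the peak from 142943587 to 142943831 reached 25 reads (fold 12.4), with a knockdown peak at 4.58 kb. On chromosome 14, the peak from 40687604 to 40687825 reached 17 reads (fold 11.04), and no knockdown peak lay within 199 kb of it. These are places where the control list has a clear summit and the knockdown list has nothing at the same position.

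On chromosome 4, the strongest such peaks lay from 35550646 to 35550836 (fold 10.5, 15 reads), from 64446894 to 64447127 (fold 11.3, 19 reads) and from 133478931 to 133479097 (fold 11.9, 15 reads). Their nearest knockdown peaks were 141, 24.5 and 6.89 kb away. On chromosome 9 they lay from 84824806 to 84825006 (fold 10.0) and from 92137400 to 92137575 (fold 10.7), each with 13 reads, and the nearest knockdown peaks were 81.6 and 24.3 kb away. All 8 were 167 to 256 bp wide.

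The 93 knockdown members without a control partner had a median summit of 6 reads, as had the 366 control members without a knockdown partner, before any scaling for depth. Per window, the strongest of the 93 had 8 to 13 reads, against 13 to 25 reads for the control peaks named above. The control peaks are the strongest of a larger set, so higher values follow in part from number. The highest fold among the 93, 9.29, was on chromosome 14 from 41750070 to 41750212, with 13 reads and a control peak 4.36 kb away. Second came a chromosome 2 peak from 143868458 to 143868682, with a fold of 9.17 and 12 reads. In the remaining windows the strongest ones had folds from 6.26 to 7.73 and 8 to 11 reads. The strongest of the 35 to 40 Mb chromosome 4 window, from 39367877 to 39368188, lay 73 bp from a control peak.

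Of the peaks with a partner, the one of highest control fold in each window was lower in the knockdown list in 5 windows, equal in 1 and higher in 2. These peaks were picked for a high control value, so lower knockdown heights follow in part from the choice. On chromosome 14, the peak from 41521087 to 41521323 had 34 reads at its summit in the control and 18 in the knockdown. On chromosome 4, the peak from 130949810 to 130950079 had 39 and 24 reads. On chromosome 9, the peak from 83647196 to 83647462 had 38 and 23 reads, and that from 90407843 to 90407967 had 15 and 7 reads. These 4 peaks stood at 0.467 to 0.615 times the control height, before any scaling for depth.

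Before any scaling for depth, the other 4 had about the control height or more. On chromosome 5, the peak with the highest fold of all members, from 118914720 to 118914990, had 49 control and 45 knockdown reads. On chromosome 2, the peak from 141344058 to 141344233 had 31 reads in both. On chromosome 4, the peaks from 39183728 to 39184183 and from 63461078 to 63461567 had more reads in the knockdown, with 47 against 42 and 45 against 36. Scaled by depth, these 8 log2 ratios of knockdown to control ran from -1.52 to -0.10, all below 0, as were 70.4% of all pairs. The 4 peaks of this paragraph stood, in the order named, at -0.55, -0.42, -0.26 and -0.10.

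Over all 254 control members with a partner, the median summit was 12 reads in either library. The recovered read numbers and the lengths to which the caller extended reads would together give 1.34 times as many in the knockdown. Scaled by that factor, the median log2 ratio was -0.42 (-0.42 to -0.25) in the windows, against -0.25 (-0.25 to -0.24) over all 33358 pairs, and 203 of the 254 pairs (79.9%) were below 0, against 70.4% of all pairs. Heights are small whole numbers, so the median sits on the value of equal reads, and the interval ends next to the median of all pairs. With the local reads per 10 kb as the scale instead, the median was -0.20 (-0.25 to -0.12) over 227 pairs, against -0.13 over all pairs. These ratios come from the same contrast that chose the windows. Lower values than over all pairs, also in single windows, therefore follow in part from the choice.

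Window medians of the depth-scaled ratio ran from -0.58 at 60 to 65 Mb of chromosome 4 and -0.57 on chromosome 14 to -0.19 at 90 to 95 Mb of chromosome 9. With 24 to 45 pairs per window their intervals overlapped one another, and the interval of the last, -0.52 to 0.06, included 0. The window with the lowest overlapped share, 90 to 95 Mb of chromosome 9, was thus not the one with the lowest summit ratio. Summits of paired peaks lay close together, at a median distance of 19 bp, against 28 bp over all pairs.

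**Figure D3:**
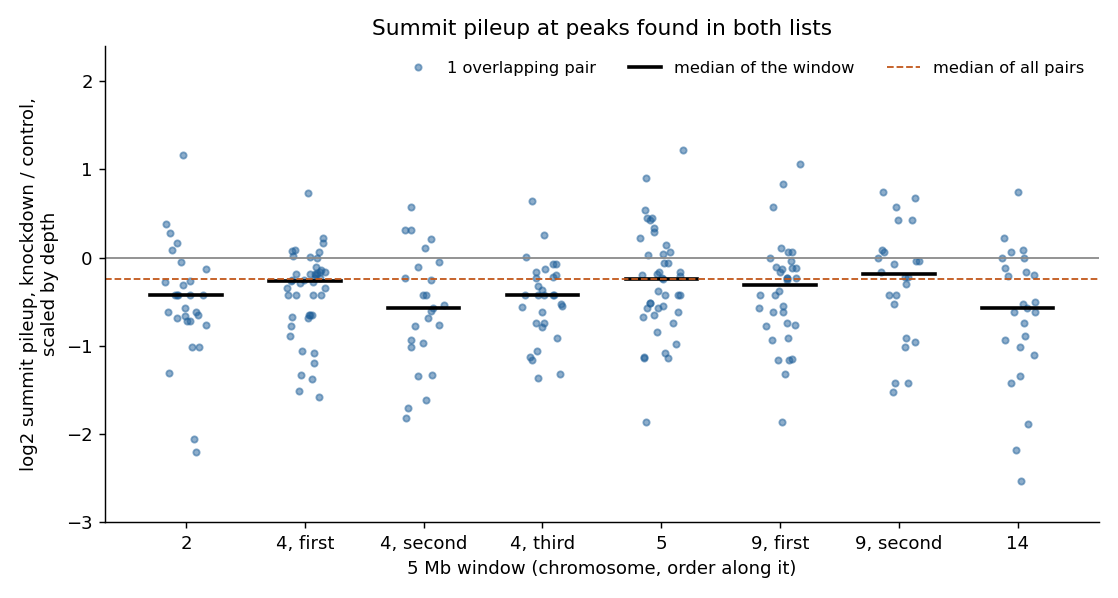
Log2 ratio of knockdown to control summit pileup, scaled by depth, for every control peak with a partner, by window. Each point is 1 pair, black lines are window medians (from -0.58 to -0.19), the dashed line is the median of all pairs (-0.25), and the grey line is 0; most points lie below 0 in every window.

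Peaks without partner occurred in every 1 Mb step of every window, though on chromosome 9 many lay in a single step of the 90 to 95 Mb window. In steps of 1 Mb, the knockdown list had fewer peaks than the control list in all 40 steps. Over all peaks the knockdown list was also shorter, at 75.4% of the control list, and other 1 Mb steps were not counted. The windows were chosen for a low partner share, so low shares in their steps follow in part from the choice. Of the 35 steps with at least 10 control peaks, 33 had a partner share under the 60.5% of the whole list. The exceptions were 39 to 40 Mb of chromosome 4, with partners for 9 of 14 control peaks, and 80 to 81 Mb of chromosome 9, with 13 of 21. Both steps lie at an outer end of their window.

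The step with the lowest share among those with at least 20 control peaks was 92 to 93 Mb of chromosome 9. It held 28 control peaks and 9 knockdown peaks, and 24 of the 49 control peaks without partner of its window lay in it. Most of the control peaks there were weak, with a median fold of 5.46 and 4 at a fold of 8 or more. Of those 4, 2 had no partner. Without this step, the rest of its window had partners for 20 of 45 control peaks, 44.4% against 55.1% given by fold, so the difference there went from -18.9 to -10.7 points.

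**Figure D4:**
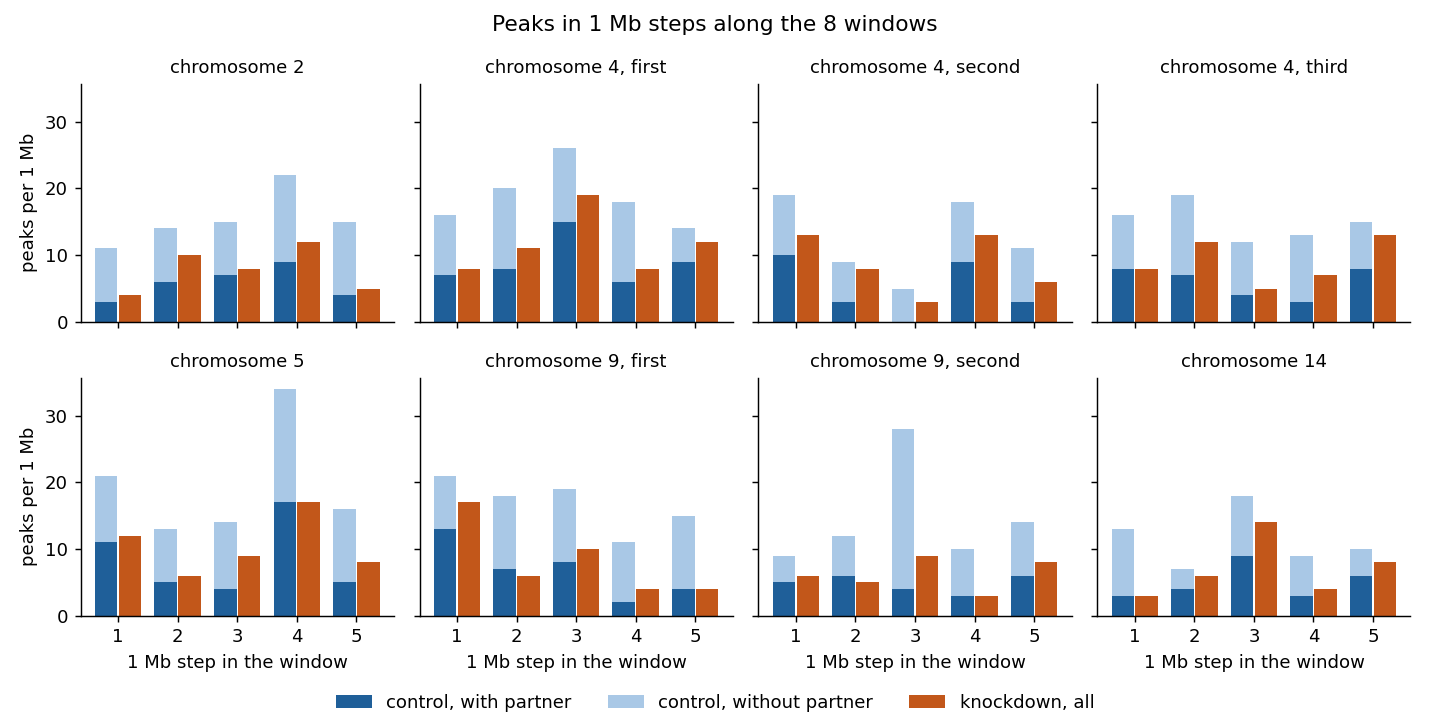
Peaks per 1 Mb step along each window, with control peaks stacked by whether they had a knockdown partner (dark and light blue) and all knockdown peaks in orange. Knockdown bars are below the full control bars in all 40 steps, and the tallest light part is the third step of the second chromosome 9 window, with 24 peaks without partner.

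Long stretches without knockdown peaks crossed several control peaks. On chromosome 9, no knockdown peak lay between 83647503 and 84304377, over 657 kb, where the control list had 8 peaks, all without partner and with folds of at most 7.91. On chromosome 14, 704 kb from 42949724 to 43653855 held 6 control peaks and no knockdown peak. Also on chromosome 14, 9 control peaks in a row had no partner, from 40330142 to 40818004, with folds up to 11.04. The longest gap between control peaks within any of the windows was 393 kb, and the longest knockdown gap of a window ran from 351 to 704 kb. These stretches, and the 1 Mb step above, were chosen with their values known.

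Within the control list, members differed from the whole list in spacing and width more than in strength. These values come from the control list alone, but the windows were chosen by overlap with the knockdown list. The differences are therefore not independent of that choice. The next control peak was a median 21.3 kb away from a member, against 11.9 kb over all control peaks, and 6.29% of members had none within 100 kb, against 3.44%. Their median width was 141 bp against 161 bp, and 21.0% had the smallest width of the list, 94 bp, against 15.8%. Median fold was 6.29 against 6.45, and the median summit 8 reads in both. Wide peaks, of 600 bp or more, were 9 of 620 members (1.45%, against 2.68% of all), and all 9 had a knockdown partner, as did all 1476 wide peaks of the whole control list. Members were thus more scattered and narrower peaks of nearly ordinary height.

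The overlapped share differed by spacing over all control peaks, and members had a lower share than all control peaks in each of the 4 spacing classes. Members were chosen for a low share, so this follows in part from the choice. Spacing as a cause was not tested. Members with another control peak within 500 bp had a partner in 34 of 72 cases, or 47.2% (35.3 to 59.3%), against 72.0% of all such control peaks. Members at least 50 kb from the next peak had one in 51 of 133 cases, or 38.3% (30.1 to 47.2%), against 54.0%. With the given share taken by fold and spacing class together, the difference was -15.8 points, against -17.5 points from fold alone.

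Local read density, recovered from the background that the caller used around each peak, was ordinary in the control library. The median was 44 reads per 10 kb both in members and over all control peaks. In the knockdown library it was 60 against 64. Over member pairs with a background above the lowest value, the knockdown had 1.24 times the local reads of the control (1.20 to 1.28), against 1.29 over all pairs, where the read numbers would give 1.42. With fold and background classes together, the difference in overlapped share was -16.7 points.

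One window stood apart in local reads. At 90 to 95 Mb of chromosome 9, 46.6% of control peaks and 48.4% of knockdown peaks had the lowest background of their list, against 20.6 and 14.6% of all peaks. In the other seven windows these shares ran from 4.08 to 13.1% in the control and from 2.33 to 17.1% in the knockdown list. Fewer local reads were therefore seen there in both libraries, with a local-read ratio of 1.43 (1.34 to 1.62) over 14 pairs. With fold and background classes together, the difference in overlapped share of this window was -14.4 points (-25.0 to -2.41), against -18.9 from fold alone.

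Heights were also set against the limit of calling in the knockdown list. At their own background scaled by depth, a knockdown summit would have needed a median of 4 reads to reach the lowest p-value limit of that list. All 366 control peaks without partner reached the needed height when scaled by depth, as did all 21766 of the whole control list. This outcome was nearly fixed in advance and says nothing of the members. Each peak had already been called in the control, and its height and background were raised by the same factor. The lowest −log10 p-values of the lists were also close, at 3.66 (control) and 3.76 (knockdown). Scaled by 1.13, the median ratio of all pairs, 336 of the 366 did (91.8%), against 95.03% of the whole list, so the members were not above the whole list in either case. This calculation leaves out the random spread of low counts and the minimum length of a peak. The median summit of the 366 was 6 reads, as it was for all 21766 control peaks without partner.

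Near misses made up a small part of them. Of the 366, 21 (5.74%) had a knockdown peak within 500 bp without touching it, against 9.30% of all control peaks without partner. In 66 cases (18.03%) the nearest knockdown peak was over 100 kb away, against 9.27%. The median distance was 40.8 kb against 20.2 kb, in windows where knockdown peaks were also farther from one another, at a median of 30.3 kb against 13.8 kb.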

How the data were processed

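Each library came as 1 deposited peak list of 10 columns, called in that library alone; BWA, MACS2, bcl2fastq 2.17.1.14 and the build hg19 are named, per the submitters' processing notes, without parameters. The deposited fold is a ratio of summit reads to background, each with 1 read added, and was used to rank and filter peaks of its own list, also where counts of both lists stand side by side, as were the −log10 values of p and q that the authors deposited. The deposited score was 10 times the −log10 q-value without decimals in all 55259 and 41611 peaks. Per the labels' protocols, libraries were made with a Nextera kit; no setting is named for insertion shifting or blacklisting, and peak names contain the term rmdup, which usually stands for removed duplicates.

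Peaks of chromosome Y were left out. Summit pileup and background were solved from fold and p by a Poisson tail (Python 3.11.15, scipy 1.17.1), with −log10 p matched within 4.2e-05. On 8000 simulated peaks per library, 100.0% of pileups were recovered. The shortest peaks, 94 and 89 bp, were taken as extension lengths. No other filter was applied, so all 964 members were used. The named peaks are, per window, the control peak without partner, the control peak with partner and the knockdown peak without partner of highest fold. Members, lists and rules were chosen with earlier results of these data known. Alternatives changed the overlap rule, the list limits, the window limits and the strength measure. Gene annotation and sequence were not used here.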

Additional observations from a re-analysis of the deposited data

How the results depend on the processing

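The overlapped share of control members, 41.0%, became 35% with reciprocal overlap of 50%, 45.7% at a q-value of at most 0.001 in both lists, 51.1% at 1e-05, 49.0% at a fold of at least 5 and 53.0% with lists of equal length; all control peaks gave 49.0, 64.9, 66.8, 68.4 and 71.7% under the same settings. For knockdown members, 73.0% became 63.1% with reciprocal overlap, 79.5% at 1e-05 and 66.9% with lists of equal length, beside 65.0, 78.2 and 71.6% of all knockdown peaks, so that at 1e-05 the members lay above the whole list and not below it. Knockdown peaks as a percent of control peaks rose from 55.5 to 64.1% at a fold of at least 5. Over all peaks of the lists they rose from 75.4 to 87.9%, so the members stayed below the whole list. The difference from the share given by fold, -17.5 points, became -11.9 with reciprocal overlap and stayed negative under the other settings. Among them were -15.9 at 1e-05 and -15.8 with spacing classes, both chosen after seeing the data. In single windows all 56 alternative values were negative, and 54 had intervals wholly below 0. The windows were chosen for a low overlapped share, which enters this difference. Negative values, also with a window left out, therefore follow in part from the choice. These intervals take the share given by fold as fixed. The log2 summit ratio, -0.42, was -0.20 with local scaling. For each of these shifts the cause was not tested. Leaving out each window in turn kept the control share between 39.7 and 42.0% and the difference between -18.2 and -17.1 points. Of the 106 control members with a fold of 10 or more, 17 had no partner, where 5.32% of all such control peaks had none. The number was 24 with reciprocal overlap and 17 with a gap of 500 bp, where 14.5 and 5.24% of all had none. A limit of 15 stacked reads in place of the fold gave 14 members, where 4.82% of all such control peaks had none. No replicate could be left out, as each group is 1 library. No paired analysis was possible because each group has 1 library and no test was made. The comparison with genes was not run for want of an hg19 annotation. Summits of 3 to 6 reads limit what can be said of any single weak peak.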
